A study of Homo sapiens with 9 samples.

Results

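Histone chaperones are proteins that bind histones outside the nucleosome, carry them into the nucleus and place them on or take them off DNA. The 10 genes described here were listed by name because protamines replace histones in sperm, and 10 of 10 were found in a table of 57338 genes. They are NAP1L1, NASP, ASF1A, ASF1B, CHAF1A, CHAF1B, HIRA, DAXX, SSRP1 and SUPT16H. By the labels, RNA was measured in HEK293T, a line derived from human embryonic kidney cells, that had taken up a plasmid coding for EGFP, either by itself (the empty vector) or joined to human protamine 1 (hPRM1) or human protamine 2 (hPRM2). By the study's description, cells with high EGFP were sorted 3 days after transfection. All groups would then share the plasmid backbone, the fluorescent protein and the sort. Each group had 3 libraries. As described, the expression was transient, came from a plasmid, and was read in an immortal line that does not form sperm. The libraries labelled hPRM1 listed PRM1 and 6 of 7 HEK293T markers at 0, as given below, so this description is not borne out for them. Nothing in the labels said whether the libraries of a group came from separate transfections, so the p-values measure only the spread between these libraries.

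Newly made H3 and H4 are held by NASP, passed to ASF1A or ASF1B, and handed on to one of several depositing complexes. The CAF-1 complex, which holds CHAF1A and CHAF1B, places H3.1 and H4 behind the replication fork. HIRA and DAXX place the variant H3.3 outside replication, HIRA mainly in active genes and DAXX with ATRX in repeats and at telomeres. NAP1L1 carries H2A and H2B, and the FACT complex of SSRP1 and SUPT16H loosens and rebuilds nucleosomes as polymerases pass. In spermatids histones leave the chromatin, transition proteins take their place, and protamines follow. The comparison asked whether the RNA of these genes differed when a protamine was made in a cell that keeps its histones.

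Before the results, the labels were set against the data. The libraries labelled hPRM1 listed PRM1 at 0 RPKM (reads divided by gene length and by the total reads of the library), as did the other 6 libraries. PRM2 was at 71224, 60050 and 36130 RPKM in the hPRM2 libraries and at 0 elsewhere. The summed level of 7 HEK293T markers was 113 to 176 RPKM with the empty vector and 55.4 to 110.4 RPKM with hPRM2. In the libraries labelled hPRM1 it was 0 to 0.306 RPKM, with 6 of the 7 (LIN28B, IGF2BP1, PAX2, NEFL, NEFM and INA) at 0 in all 3 libraries. There the 8 red cell markers summed to 2060240 to 2266410 RPKM against at most 18.2 RPKM elsewhere, the 8 neutrophil and monocyte markers to 3404 to 4329 RPKM against at most 20.7 RPKM, the 8 lymphocyte markers to 627 to 855 RPKM against 0, and the 5 platelet markers to 319 to 560 RPKM against at most 13.5 RPKM. Among these markers, NEFL was low with the empty vector too, at 0, 0.135 and 1.125 RPKM. FCGR3B was at 0 in every library, and HBD was at 0, 0 and 0.786 RPKM in the libraries labelled hPRM1. The library numbers of those labelled hPRM1 also come from a different run of numbers than the remaining 6. Label, library number and marker content move together and cannot be told apart, and their part in the results below was not tested. No library labelled hPRM1 was free of this, so no value without them can be given. Reads on genes, estimated from the smallest steps between values, were 7930000 to 10800000 for the empty vector, 4210000 to 5860000 for the libraries labelled hPRM1 and 1270000 to 2650000 for hPRM2. In bulk RNA, fewer cells of a type and less RNA per cell cannot be told apart.

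All 10 are protein-coding. On build GRCh38 GENCODE 29 places NAP1L1 (ENSG00000187109) at chr12:76036587-76085033 on the minus strand, NASP (ENSG00000132780) at chr1:45583846-45618904 on the plus strand, ASF1A (ENSG00000111875) at chr6:118894220-118909167 on the plus strand, ASF1B (ENSG00000105011) at chr19:14119509-14136956 on the minus strand, CHAF1A (ENSG00000167670) at chr19:4402662-4445018 on the plus strand. It places CHAF1B (ENSG00000159259) at chr21:36385378-36419015 on the plus strand, HIRA (ENSG00000100084) at chr22:19330698-19447450 on the minus strand, DAXX (ENSG00000204209) at chr6:33318558-33323016 on the minus strand, SSRP1 (ENSG00000149136) at chr11:57325985-57335877 on the minus strand and SUPT16H (ENSG00000092201) at chr14:21351472-21384266 on the minus strand.

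The stretch before the RefSeq gene start is shown for CHAF1A and HIRA, which stand for deposition with and without replication and whose listed levels differed in opposite directions from the empty vector in the libraries labelled hPRM1. The sequences are from RefSeq, build GRCh38.p14, and run 150 bases up to the base before the start, on the strand of the gene. CHAF1A is shown from chr19:4402490-4402639 (plus strand) and HIRA from chr22:19431734-19431883 (minus strand). The RefSeq start of HIRA lies inside the GENCODE 29 span given above, which begins further upstream, so the HIRA stretch is not the edge of that span. Capitals mark E2F-type letters (TTCCCGC or TTGGCGC) and the CCAAT box (CCAAT), on either strand.
CHAF1A: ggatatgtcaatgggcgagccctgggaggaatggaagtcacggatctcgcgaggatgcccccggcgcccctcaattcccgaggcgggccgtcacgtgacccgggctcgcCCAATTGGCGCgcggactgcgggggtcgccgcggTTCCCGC
HIRA: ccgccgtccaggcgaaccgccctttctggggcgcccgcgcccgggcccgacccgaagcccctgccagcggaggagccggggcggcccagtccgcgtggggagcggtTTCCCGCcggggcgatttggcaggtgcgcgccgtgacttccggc
In CHAF1A 2 CCAAT matches on opposite strands overlap each other and a TTGGCGC match, and a TTCCCGC match ends at the base before the start. In the full window of 250 bases before to 50 after the start, E2F-type letters were found in 4 of the 9 listed genes that matched a RefSeq entry (NAP1L1, CHAF1A, CHAF1B and HIRA), against 9.33% of 27303 windows. CCAAT was found in 5 of 9 (NASP, ASF1A, SUPT16H, CHAF1A and ASF1B), against 35.7%, and TTTGAA, the letters of the element called CHR, in 1 of 9 (ASF1B), against 15.4%. DAXX had no entry. These matches describe the letters only.

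With the empty vector, 9 of the 10 genes were measured above 1 RPKM in all 3 libraries. NAP1L1 had the highest mean level at 790 ± 65.8 RPKM (SD, n = 3), followed by SSRP1 at 241 ± 14.1, NASP at 114 ± 8.0, SUPT16H at 78.1 ± 18.6, ASF1B at 59.2 ± 8.09, CHAF1A at 58.2 ± 7.11, DAXX at 51.4 ± 22.2, ASF1A at 12 ± 3.5 and CHAF1B at 11.4 ± 0.528 RPKM. The libraries of SUPT16H, ASF1B, CHAF1A and DAXX overlapped, as did those of ASF1A and CHAF1B, so the order within these sets does not go beyond the spread. HIRA was listed at 0 in all 3. The library kit read the 3′ ends of transcripts while the values were divided by gene length, so the order between genes depends on that division. The comparison of 1 gene between groups does not if the same length was used in every library, which was not checked. Of 6 annotated pseudogene copies of these genes, 1 reached 1 RPKM in any library (NAP1L1P3, at most 1.13 RPKM).

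Against the empty vector, 9 of the 10 genes could be tested and 9 of 9 fell in the libraries labelled hPRM1, with no overlap between the groups. Calls needed an adjusted p of at most 0.05 with limma and a change of at least 2-fold. Of all 13588 genes tested, 62.5% were called lower by the same rule, 12.9% were called higher, and 80.8% had groups that did not overlap, so a lower call was common among all genes. The median difference of the 9 was -3.35 on the log2(RPKM + 1) scale, which understates the change of low genes, and the median of all genes tested was -1.72. All 9 lay below that median. Among genes that reached 10 RPKM in 3 or more of the 6 libraries, the median of all genes was -2.43 and 71.2% were called lower. The 8 listed genes tested there had a median of -3.36, and DAXX at -1.96 lay above the median of all genes. With median-of-ratios scaling of the libraries the median of all genes was -0.12, and 8 of the 9 were then still called lower, with a median of -1.30. Under that scaling 28.9% of all genes tested were called lower and 28.8% higher. The 8 genes still called lay from -2.58 for CHAF1B to -1.11 for ASF1B. RPKM values are divided by the library total, so a level given as a percentage of the empty vector mean depends on what else a library holds. In the libraries labelled hPRM1 HBA2 alone was listed at 1146420 to 1295700 RPKM. The part of this in the falls was not tested.

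Among the carriers, NAP1L1 was at 847, 805 and 718 RPKM with the empty vector, at 76.9, 74.3 and 78.0 RPKM in the libraries labelled hPRM1, and at 695, 494 and 641 RPKM with hPRM2. The libraries labelled hPRM1 were far below both other groups and nearly equal to each other. NAP1L1 fell by 3.35 on the log2 scale in them (SE 0.14, adjusted p = 4.76e-06, limma), to 9.67% of the empty vector mean. After median-of-ratios rescaling that difference was -1.17 (adjusted p = 0.000954, limma). With hPRM2 the difference was -0.38 (95% interval -0.97 to 0.20, adjusted p = 0.354, limma), although the highest hPRM2 library was below the lowest empty vector library.

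NASP, which keeps the soluble pool of H3 and H4 and also binds linker histone H1, was at 109, 123 and 110 RPKM with the empty vector, at 6.75, 13.7 and 11.9 RPKM in the libraries labelled hPRM1, and at 155, 111 and 98.2 RPKM with hPRM2. Only the libraries labelled hPRM1 stood apart from the empty vector, and the hPRM2 libraries lay on both sides of it. In the libraries labelled hPRM1 NASP fell by 3.34 on the log2 scale (SE 0.28, adjusted p = 4.95e-05, limma), to 9.46% of the empty vector mean. The rescaled difference was -1.23 (adjusted p = 0.00381, limma). For hPRM2 the difference was 0.07 (95% interval -0.68 to 0.81, adjusted p = 0.905, limma).

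The related ASF1 proteins receive H3 and H4 from the cytoplasm and differ in that ASF1B is the form of dividing cells. ASF1A was at 14.6, 13.5 and 7.99 RPKM with the empty vector, at 0.485, 0.658 and 0.725 RPKM in the libraries labelled hPRM1, and at 2.68, 0 and 7.95 RPKM with hPRM2. The 0 stood in the library with the fewest estimated reads on genes, where 3 reads of this gene would give 1.12 RPKM, and the estimated reads behind the hPRM2 values were 15.0, 0 and 27.0. ASF1A fell by 2.97 in the libraries labelled hPRM1 (SE 0.27, adjusted p = 8.04e-05, limma). With hPRM2 the difference was -1.98 (95% interval -4.05 to 0.09, adjusted p = 0.21, limma), and the highest hPRM2 library was just below the lowest empty vector library. That difference was -1.14 without the second and -2.72 without the third hPRM2 library, and -3.16 and -1.08 with pseudocounts of 0.1 and 5. MCM9, which shares exon bases with ASF1A on the other strand, had the same order of groups, at 2.20 to 3.15 RPKM with the empty vector, 0.147 to 0.387 RPKM in the libraries labelled hPRM1 and 0 to 2.66 RPKM with hPRM2. The part of such overlaps in the values was not tested.

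ASF1B was at 58.8, 67.5 and 51.3 RPKM with the empty vector, at 4.45, 5.98 and 6.98 RPKM in the libraries labelled hPRM1, and at 25.8, 15.9 and 31.1 RPKM with hPRM2. None of the 3 groups overlapped, and the hPRM2 libraries lay between the other groups. The fall in the libraries labelled hPRM1 was 3.15 on the log2 scale (SE 0.23, adjusted p = 2.9e-05, limma). For hPRM2 the difference was -1.29 (95% interval -2.25 to -0.34), with an unadjusted p of 0.0151 and an adjusted p of 0.12 by limma. A fit of all 9 libraries, which shares the spread of the libraries labelled hPRM1, gave the same difference an adjusted p of 0.0392 with limma.

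CHAF1A, the large subunit of CAF-1 that binds the clamp PCNA, was at 66.4, 53.6 and 54.6 RPKM with the empty vector, at 4.31, 4.55 and 3.54 RPKM in the libraries labelled hPRM1, and at 22.9, 26.4 and 35.6 RPKM with hPRM2. Its groups, too, did not overlap and had the same order as those of ASF1B. CHAF1A fell by 3.53 in the libraries labelled hPRM1 (SE 0.20, adjusted p = 1.15e-05, limma), to 7.1% of the empty vector mean. The rescaled difference was -1.52 (adjusted p = 0.000607, limma). The difference for hPRM2 was -1.03 (95% interval -1.90 to -0.17), with an unadjusted p of 0.0259 and an adjusted p of 0.149 by limma, at 48.7% of the empty vector mean. CHAF1A shares exon bases with UBXN6 on the other strand, and the sources used here do not say whether counting used the strand. UBXN6 was at 34.4 to 69.3 RPKM with the empty vector, 143 to 237 RPKM in the libraries labelled hPRM1 and 0 to 33.6 RPKM with hPRM2.

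CHAF1B, the middle subunit of CAF-1, was at 11.9, 10.9 and 11.3 RPKM with the empty vector, at 0, 0.0561 and 0 RPKM in the libraries labelled hPRM1, and at 14.0, 4.46 and 6.61 RPKM with hPRM2. In estimated reads this was 1 read over the 3 libraries labelled hPRM1 against 1311 reads over the 3 empty vector libraries. Per read on genes the empty vector level was 736 times that of the libraries labelled hPRM1, with an exact 95% interval of 132 to 29100 that covers counting error only. A listed 0 need not mean that no read was there, as set out for HIRA below, so the size of this fold is not secure. No other tested gene was at 0 in more than 1 library of a group. The fitted difference of CHAF1B, -3.60 (SE 0.20, adjusted p = 1.03e-05, limma), depends on the pseudocount, being -6.63 with 0.1 and -1.71 with 5. After median-of-ratios rescaling it was -2.58 (adjusted p = 5.27e-05, limma). For hPRM2 the difference was -0.54 (95% interval -1.88 to 0.81, adjusted p = 0.561, limma), with 1 library above and 2 below the empty vector. The neighbour MORC3, which shares exon bases with CHAF1B on the same strand, was at 7.07 to 14.2 RPKM in the libraries labelled hPRM1 and at 6.65 to 10.5 RPKM with the empty vector.

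HIRA was above 0 only where most of the other genes were low. It was listed at 0 in the 3 empty vector and the 3 hPRM2 libraries and at 0.325, 0.755 and 0.209 RPKM in the libraries labelled hPRM1, which corresponds to an estimated 7.3, 12.1 and 4.2 reads. It did not reach the level needed for a test in any comparison. A 0 in this table need not mean that no read was there. MCM4, which dividing cells use, was at 34.7 and 58.9 RPKM in 2 empty vector libraries and at 0 in the third, so no fold is given for HIRA. HIRA shares exon bases on the same strand with C22orf39, which was at 74.2 to 75.1 RPKM with the empty vector, 6.04 to 10.3 RPKM in the libraries labelled hPRM1 and 34.3 to 76.8 RPKM with hPRM2.

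DAXX, the partner of ATRX in placing H3.3, was at 34.7, 76.5 and 42.9 RPKM with the empty vector, at 10.5, 13.6 and 11.4 RPKM in the libraries labelled hPRM1, and at 28.3, 16.0 and 27.7 RPKM with hPRM2. The libraries labelled hPRM1 and the hPRM2 libraries all lay below the empty vector, whose second library was far above its other two. DAXX kept the largest share of its level among the 9 tested genes in the libraries labelled hPRM1, 23.0% of the empty vector mean. Its difference of -1.96 (SE 0.32, adjusted p = 0.00118, limma) was near the median of all genes, with 44.2% of the genes tested lower. After median-of-ratios rescaling it was 0.13 with an adjusted p of 0.705 by limma, so the direction of DAXX depends on how the libraries are scaled. With hPRM2 the difference was -1.03 (95% interval -2.14 to 0.08, adjusted p = 0.221, limma).

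SSRP1, the FACT subunit with an HMG box that binds DNA, was at 225, 246 and 251 RPKM with the empty vector, at 12.6, 15.4 and 15.0 RPKM in the libraries labelled hPRM1, and at 193, 167 and 196 RPKM with hPRM2. The 3 groups did not overlap. SSRP1 had a difference of -3.98 on the log2 scale (SE 0.17, adjusted p = 4.76e-06, limma), with 9.77% of the genes tested lower. For hPRM2 the difference was -0.38 (95% interval -1.0 to 0.24, adjusted p = 0.385, limma).

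SUPT16H, the large FACT subunit that binds H2A and H2B, was at 82.7, 94.0 and 57.6 RPKM with the empty vector, at 4.85, 7.02 and 8.14 RPKM in the libraries labelled hPRM1, and at 115, 91.9 and 83.5 RPKM with hPRM2. Its hPRM2 libraries reached above the empty vector, unlike those of its partner SSRP1. SUPT16H fell by 3.36 in the libraries labelled hPRM1 (SE 0.28, adjusted p = 4.92e-05, limma). With hPRM2 the difference was 0.32 (95% interval -0.49 to 1.14, adjusted p = 0.561, limma).

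**Figure D1:**
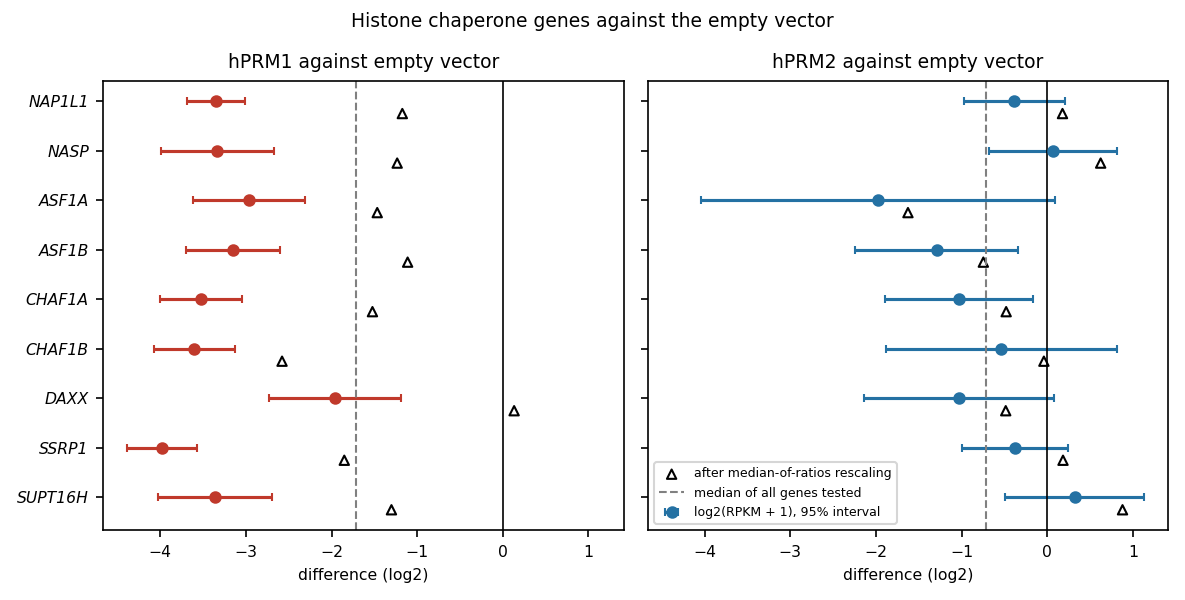
Difference from the empty vector (log2, horizontal axis) of the 9 tested histone chaperone genes in the libraries labelled hPRM1 (left) and hPRM2 (right). Circles with bars are limma estimates on log2(RPKM + 1) with 95% intervals, triangles the estimates after median-of-ratios rescaling, and the dashed line the median of all genes tested (-1.72 and -0.72). All 9 circles on the left lie below the dashed line and the triangle of DAXX lies above 0, while on the right 7 of 9 intervals include 0.

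Against the empty vector, limma called 0 of the 9 tested genes lower and 0 higher with hPRM2. An unadjusted limma p under 0.05 was found for 2 of them, ASF1B and CHAF1A, and for 3351 of all 13126 genes tested. The per-gene test of the study's methods also called 0. It put 3 of the 9 under 0.05 before adjustment, and 2517 of all 13126 genes. The limma call rates over all 13126 genes tested were 1.37% lower and 1.36% higher. The groups did not overlap for 6 of the 9 (NAP1L1, ASF1A, ASF1B, CHAF1A, DAXX and SSRP1), against 35.9% of all genes tested. The median difference of the 9 was -0.54 and that of all genes -0.72. The first hPRM2 library had 9652 genes above 0, against 14353 and 15633 in the others. Without it limma called 1619 of all genes lower and 810 higher, against 180 and 179 with it. The median of the 9 was then -0.90, and 0 of them were called, with adjusted p-values of 0.0516 for ASF1B and 0.0725 for CHAF1A by limma. The hPRM2 libraries had the fewest reads on genes by the estimate used here, which need not follow the total reads sequenced, and several intervals reach past a 2-fold difference, so these values do not show that the levels were alike.

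**Figure D2:**
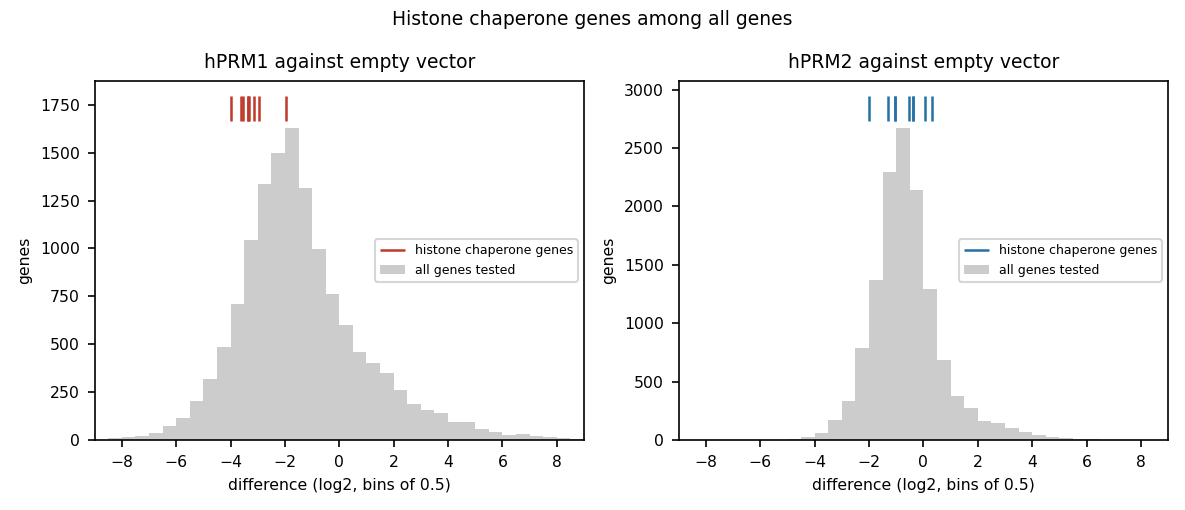
Number of genes (vertical axis) by difference from the empty vector (log2, bins of 0.5) among all genes tested, for the libraries labelled hPRM1 (left) and hPRM2 (right), between -9 and 9. Ticks above the bars are the 9 tested histone chaperone genes, which lie from -3.98 to -1.96 on the left and from -1.98 to 0.32 on the right.

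Both comparisons share the empty vector libraries, so the libraries labelled hPRM1 were also set directly against the hPRM2 libraries. In the libraries labelled hPRM1, 7 of the 8 genes tested were called lower than with hPRM2. All 8 had a difference below 0, and 8 of 8 had groups that did not overlap. Of all 11756 genes tested, 37.0% were called lower, 16.0% were called higher and 62.0% had groups apart. The median difference was -3.02 for the 8 genes and -0.97 for all genes. With a minimum of 10 RPKM the medians were -2.97 for the 7 genes tested and -1.69 for all genes, of which 52.9% were called lower. SUPT16H and SSRP1 had differences of -3.69 (SE 0.33, adjusted p = 0.000353, limma) and -3.61 (SE 0.27, adjusted p = 0.000194, limma), and CHAF1B one of -3.07 that was -6.02 with a pseudocount of 0.1 and -1.35 with 5. ASF1B had one of -1.86 (SE 0.40, adjusted p = 0.00878, limma), and DAXX was not called at -0.93 (SE 0.37, adjusted p = 0.076, limma). ASF1A and HIRA were below the level for testing. After median-of-ratios rescaling 5 of 8 were called lower, without ASF1B at -0.08 and CHAF1A at -0.75, and DAXX turned to 0.90. Over all genes that scaling called 18.3% lower and 31.2% higher. The per-gene test of the study's methods called 0 of 8, with 5 under an unadjusted 0.05, as were 3233 of all 11756 genes.

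Ratios within a library do not depend on how libraries are scaled, apart from the pseudocount of 1 added to each level. Groups were set against each other in two-sided exact permutation tests, 12 in all, whose smallest p with 3 libraries against 3 is 0.1. The log2 ratio of SSRP1 over SUPT16H was 1.43, 1.38 and 2.11 with the empty vector, 1.22, 1.03 and 0.80 in those labelled hPRM1, and 0.74, 0.86 and 1.22 with hPRM2. The other 6 libraries lay below every empty vector library, including those labelled hPRM1, which list PRM1 at 0. The mean differences were -0.62 and -0.70 (exact permutation p = 0.1 for each, adjusted p = 0.24). The libraries labelled hPRM1 overlapped with those of hPRM2, with a difference of 0.08 (exact permutation p = 0.8).

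The ratio of CHAF1A over CHAF1B had means of 2.25, 2.33 and 1.76 for the empty vector, the libraries labelled hPRM1 and hPRM2, and that of ASF1A over ASF1B means of -2.24, -2.05 and -2.93. Each pair of groups overlapped in these ratios, with exact permutation p-values of 0.4 to 0.8. With CHAF1B at or near 0, its ratio in the libraries labelled hPRM1 rests on the pseudocount. The difference of that ratio from the empty vector was 0.08 with a pseudocount of 1, 2.84 with 0.1 and -1.08 with 5. It was 1.38 after median-of-ratios rescaling with a pseudocount of 1, so the overlap does not show that this ratio was alike. The ratio of HIRA over CHAF1A had means of -5.88, -1.86 and -4.85 (exact permutation p = 0.1 in each comparison). The first and last hold HIRA at 0 and so give the level of CHAF1A only. In the libraries labelled hPRM1 HIRA had a mean of 0.50 on log2(RPKM + 1), while CHAF1A fell by 3.53 against the empty vector. These ratios therefore mostly restate CHAF1A and say little of HIRA.

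The rest of the histone chaperone system was followed in a list of 34 other chaperones and partners. In the libraries labelled hPRM1, 30 of the 32 tested were called lower than with the empty vector, 1 was called higher and 1 was not called. Their median difference was -2.91, and 62.5% of all genes tested were called lower and 12.9% higher. After median-of-ratios rescaling 18 were called lower and 1 was called higher, against 28.9% and 28.8% of all genes. The largest falls were those of NPM1, a nucleolar chaperone, at 11.9 to 18.4 RPKM against 793 to 1197 RPKM (log2 difference -5.86, adjusted p = 4.59e-06, limma), of MCM2, the helicase subunit that binds H3 and H4 (-5.85, adjusted p = 4.76e-06, limma), and of HJURP, the chaperone of the centromeric H3 variant (-5.61, adjusted p = 2.28e-05, limma). UBN1, a subunit of the HIRA complex, was the gene called higher, at 128 to 183 RPKM against 47.9 to 112 RPKM (1.03, SE 0.34, adjusted p = 0.0277, limma). That call was lost when any 1 library was left out except the second empty vector library, with adjusted p-values of 0.00493 to 0.0912 by limma. It was also lost with a pseudocount of 5, in the per-gene test and in the fit of all 9 libraries (adjusted p = 0.139, limma). After median-of-ratios rescaling the UBN1 difference was 3.19, so its size depends on how the libraries are scaled. With hPRM2, 0 of the 32 tested were called in either direction by limma, and the median was -0.40. An unadjusted limma p under 0.05 was found for 5 of the 32, and for 3351 of all 13126 genes tested.

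Compared directly, 24 of 30 of these genes were called lower in the libraries labelled hPRM1 than with hPRM2 and 1 was called higher. Their median was -2.60, and 37.0% and 16.0% of all genes were called. After median-of-ratios rescaling 12 were called lower and 3 higher with a median of -1.04, against 18.3% and 31.2% of all genes. The per-gene test called 2 lower and 0 higher. NPM1 (-6.14), HJURP (-5.48) and NPM3 (-5.08) had the largest falls, and UBN1 was the higher one (1.87, adjusted p = 0.0393, limma). The UBN1 call was lost without a filter, in the per-gene test, without the second hPRM2 library and without any 1 of the libraries labelled hPRM1. After median-of-ratios rescaling this UBN1 difference was 3.76. Several of the listed chaperones work at the replication fork, so 18 replication genes were counted beside them. In the libraries labelled hPRM1, 17 of 17 tested were lower than with the empty vector (median -4.94) and 17 of 17 lower than with hPRM2 (median -3.97). Of all genes tested, 62.5% and 37.0% were called lower in these comparisons. After median-of-ratios rescaling 17 and 14 of the 17 were called lower (medians -3.12 and -2.46), against 28.9% and 18.3% of all genes. With hPRM2 0 of 18 were called by limma against the empty vector, and the median was -0.64. An unadjusted limma p under 0.05 was found for 6 of the 18, and for 3351 of all 13126 genes tested. The part of replication genes in the values of the chaperones was not tested.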

How the data were processed

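RNA was read in 9 libraries, all labelled HEK293T, with a kit for 3′ ends. The authors processed the reads with nf-core/rnaseq (FastQC, cutadapt, STAR and Salmon, hg38 per the submitters' processing notes; versions and annotation are not given in the sources used here), removed mitochondrial genes, and deposited RPKM values, which are gene counts divided by the total of the library and by gene length. Gene positions are from GENCODE 29, and 98.6% of identifiers had a symbol. No other columns of samples were present, and 0 pairs of libraries were identical.

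Levels were compared on log2(RPKM + 1) with limma 3.58.1 in R 4.3.3 (lmFit, eBayes with trend and robust) for genes that reached 1 RPKM in 3 or more of the 6 libraries compared. Benjamini-Hochberg adjustment ran over all genes tested, and a call needed an adjusted p of at most 0.05 and 2-fold. The script was tested on simulated data, in which 200 genes were changed in each comparison and low means were raised. Of changes of 3 on the log2 scale put in there, 65% were recovered for hPRM1 against the empty vector. For hPRM2 against the empty vector 12% were recovered, and for hPRM1 against hPRM2 10%. Of the smaller changes put in, 22%, 0% and 0% were recovered, in the same order. These shares belong to that setting. In the data 62.5% of the genes tested were called lower in the libraries labelled hPRM1 against the empty vector, and 37.0% against hPRM2. That is far more than was changed in the simulation, which makes the adjusted cutoff looser. The shares therefore do not give the power of those 2 comparisons. A gene that was not called with hPRM2 is still not shown to be alike. Reads were estimated from single-read steps in genes with 1 transcript, after subtracting 250 bases from each length; estimates and limits of 3 reads cover counting error only. No test was run on the list as a whole. Samples were grouped by their titles.

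Alternatives were pseudocounts of 0.1 and 5, no filter, a minimum of 10 RPKM, median-of-ratios and quantile scaling, a joint fit of the 9 libraries, a replicate block, no fold threshold, the per-gene test with unequal variances that the methods describe, and leaving out each library. Members, lists, tests and the naming rule (all 10 members, the 3 largest falls and rises of the other chaperones, the 5 genes most like the members) were chosen with earlier results of these data known. One HEK293T marker of the list is not reported here. MCM4 and the overlapping genes were named after their values were seen. Python 3.11.15, pandas 2.3.3, SciPy 1.17.1 and matplotlib 3.10.9 were used.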

Additional observations from a re-analysis of the deposited data

Results flagged for a closer look

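For 7 histone chaperone genes the direct test showed that the libraries labelled hPRM1 and the hPRM2 libraries differed, as hPRM1 minus hPRM2 on the log2(RPKM + 1) scale with limma: NAP1L1 by -2.97, NASP by -3.40, ASF1B by -1.86, CHAF1A by -2.50, CHAF1B by -3.07, SSRP1 by -3.61 and SUPT16H by -3.69. The 3 libraries labelled hPRM1 were below the 3 hPRM2 libraries for each of the 7. Of all 11756 genes tested, 37.0% were called lower and 62.0% had groups apart. After median-of-ratios rescaling ASF1B (-0.08) and CHAF1A (-0.75) were not called, and the per-gene test called 0 of 8. All 7 differences rest on libraries in which PRM1 was listed at 0 and 6 of 7 HEK293T markers were at 0. The part of this in the differences was not tested. No test for single outlying libraries was run in groups of 3. Values with each library left out are given in the next section.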

How the results depend on the processing

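Of the 9 genes tested in the libraries labelled hPRM1, 9 were called lower under each alternative other than median-of-ratios and quantile scaling (8 each, without DAXX), a minimum of 10 RPKM (8 of 8 tested), and the per-gene test of the study's methods (6, without ASF1A, SUPT16H and DAXX, whose adjusted p-values were 0.0658, 0.055 and 0.13). Their median was -3.53 and -2.79 with pseudocounts of 0.1 and 5, -1.30 after median-of-ratios rescaling (DAXX at 0.132), -1.64 after quantile normalization, and -3.43 to -3.18 when each library was left out. For hPRM2 against the empty vector the median was -0.38 with a pseudocount of 5, -0.04 after median-of-ratios rescaling, where SSRP1 (0.184) and NAP1L1 (0.178) changed sign, and -0.90 to -0.30 over libraries left out, where NASP ranged from -0.122 to 0.203. The fit of all 9 libraries called 1 gene lower, ASF1B. For the direct comparison the median was -3.25 and -2.38 with pseudocounts of 0.1 and 5, -2.73 without a filter (10 genes), -1.28 and -1.68 after median-of-ratios and quantile scaling (DAXX at 0.898 and 0.346), and -3.25 to -2.76 over libraries left out. DAXX was called there, at -1.19 with an adjusted p of 0.0282 by limma, without the second hPRM2 library, and the per-gene test called 0 genes. Ratios changed sign for ASF1A over ASF1B (-0.692 with a pseudocount of 0.1 and -0.477 after rescaling for the libraries labelled hPRM1, 0.0819 with 5 for hPRM2), for CHAF1A over CHAF1B with a pseudocount of 5 (-1.08 against the empty vector and -0.503 against hPRM2 in the libraries labelled hPRM1) and over libraries left out for hPRM2 (-0.78 to 0.0462), and for SSRP1 over SUPT16H between the libraries labelled hPRM1 and hPRM2 (-0.176 with 5, -0.0213 to 0.22 over libraries left out). The causes were not tested. Over all genes, 8491 lower and 1750 higher calls in the libraries labelled hPRM1 became 3925 and 3919 after median-of-ratios rescaling, 4388 and 3475 after quantile scaling, 4970 and 867 with a minimum of 10 RPKM (fewer genes tested), 6341 and 1152 with a pseudocount of 5 and 3727 and 792 in the per-gene test. For hPRM2, 180 and 179 became 1618 and 507 in the fit of all 9 libraries, 101 and 152 with a pseudocount of 5, 17 and 72 without a filter, 44 and 123 with a minimum of 10 RPKM, 82 and 220 after median-of-ratios and 70 and 342 after quantile scaling, 9 and 0 in the per-gene test, and 1619 and 810 without the first hPRM2 library (2 to 44 and 10 to 40 without another). Directly compared, 4355 and 1879 became 2148 and 3662 after median-of-ratios and 3104 and 2897 after quantile scaling, and 103 and 116 in the per-gene test. Of the other chaperones, 11 to 31 were called lower in the libraries labelled hPRM1 over the alternatives. The replicate numbers did not pair the samples (correlations of deviations from -0.0783 to 0.0795). With the replicate block 9 of 9, 0 of 9 and 7 of 8 genes were called lower in the 3 comparisons, and over all genes 8551, 8 and 4019 lower and 1783, 49 and 1797 higher. Depth limits ASF1A, CHAF1B and HIRA, whose values in some libraries rest on fewer than 30 estimated reads.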

Other observations

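Across the 9 libraries, the genes whose log2(RPKM + 1) was most like the mean standardised profile of the 9 measured histone chaperone genes were GPX8, a peroxidase of the endoplasmic reticulum (Pearson's r = 0.998), EIF2S2, a subunit of a translation initiation factor (0.998), SMARCA1, a chromatin remodelling ATPase (0.997), TCAF1 (0.997) and AK4, an adenylate kinase (0.997). Of the 12234 protein-coding genes compared, 2968 (24.3%) had an r of at least 0.9. The libraries fall into separate groups and share their scaling, so these values are a description without a test.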
